A study of Homo sapiens with 12 samples.

Results

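The 39 protein-coding HOX genes were taken from the 55882 gene symbols of the count table as every symbol made of HOX, a cluster letter A to D and a paralog number. There were 11 of them in HOXA on chromosome 7, 10 in HOXB on chromosome 17, 9 in HOXC on chromosome 12 and 9 in HOXD on chromosome 2. RNA sequencing covered T47D, an established human breast cancer line that carries the estrogen receptor, in 4 groups of 3 libraries. The groups were T47D cells with ectopic HOXB13 exposed to 2 nM estradiol, the same HOXB13 cells in the ethanol vehicle, control T47D cells exposed to 2 nM estradiol, and control cells in vehicle. Exposure lasted 24 h and followed 72 h in medium with 10% charcoal-stripped serum, which all groups shared. Controls are called WT or normal, with no word on an empty vector, and no source used here states the vector, promoter or clonality of the HOXB13 cells. The study asked which expression profile accompanies ectopic HOXB13 with and without estradiol.

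HOX genes encode homeodomain transcription factors, and their order along a chromosome follows the order in which they act along the body axis. Low paralog numbers mark anterior genes and high numbers posterior ones, and genes with the same number in different clusters are paralogs that descend from one ancestral gene. HOX proteins bind DNA with TALE cofactors, and trithorax and Polycomb complexes keep the clusters active or silent. In adult tissue HOXB13 is known as a factor of the prostate and the distal gut, and its RNA has been studied in estrogen receptor-positive breast cancer in relation to endocrine treatment.

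Library depth was 17679824 to 21385996 counts, of which 5194 to 8018 fell on HOX genes. Luminal breast markers were high in every library, with KRT8 between 6649 and 11665 counts per 1000000 counts of the scaled library (CPM). Among defining markers of other cell types, CDH5 of endothelium had 0 counts everywhere and PTPRC of leukocytes at most 4, while COL1A1 of fibroblasts reached 51.4 to 64.0 CPM, beside at most 2.50 CPM for COL3A1 and 2 counts for PDGFRB. KLK2 of prostate epithelium had 0 counts and KLK3 at most 2, also in the HOXB13 cells. Replicates differed by more than counting noise, with a chi-square per degree of freedom of 7.03 to 14.7 between libraries numbered 1 and 3 of a group and of 21.3 to 46.3 for pairs with number 2. In bulk RNA, fewer cells of a kind and less RNA per cell cannot be told apart.

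T47D cells expressed a HOXC-weighted pattern led by the posterior gene HOXC10. Of the 39 genes, 20 passed the filter on low counts, which asks for about 10 counts in at least 3 libraries. These were 8 of 9 genes in HOXC, 7 of 10 in HOXB, 4 of 11 in HOXA and 1 of 9 in HOXD. HOXC held 75.1% of all HOX counts and HOXB 23.5%, against 0.891% for HOXA and 0.518% for HOXD. Most of that came from a single gene, HOXC10, with 49.4% of the HOX counts. On a scale that divides CPM by exon length, so that genes can be compared, HOXC made up 74.9% ± 2.31 of the summed level (SD, n = 12 libraries), HOXB 23.1% ± 2.10, HOXA 1.15% ± 0.325 and HOXD 0.847% ± 0.253. By position, paralogs 9 to 13 made up 72.0% ± 2.58, paralogs 1 to 4 20.96% ± 1.72 and paralogs 5 to 8 7.02% ± 1.21 of the same sum. HOXC10 alone, at a mean of 71.3 CPM per kb, was most of the sum of paralogs 9 to 13. That sum was 81.4 to 121 CPM per kb over the libraries.

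Ranked by mean CPM per kb over the 12 libraries, HOXC10, a posterior gene known from lumbar motor neurons in mouse, stood at 71.3 ± 12.3 and above 96.2% of the tested genes with a known length. HOXB2, an anterior gene known from hindbrain patterning in mouse, followed at 22.6 ± 2.54 CPM per kb, and HOXC13, known for hair and nail keratin genes, at 15.5 ± 3.21. HOXC11 reached 6.83 ± 0.517 CPM per kb and stood above the median of 4.68 over all tested genes with a length. The next genes were HOXC4 at 4.57 ± 0.764, HOXB7 at 4.37 ± 0.501 and HOXC9 at 4.12 ± 0.494 CPM per kb, which differed from one another by less than their spread. Of the remaining tested members, HOXB3, HOXC6, HOXB6, HOXB5 and HOXD12 lay between 1.03 and 1.42 CPM per kb, and HOXA5, HOXA6, HOXC12, HOXC8, HOXA11, HOXB9 and HOXA3 between 0.152 and 0.560. HOXB13, which was high in 2 groups only, averaged 0.789 CPM per kb over all 12 libraries.

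**Figure D1:**
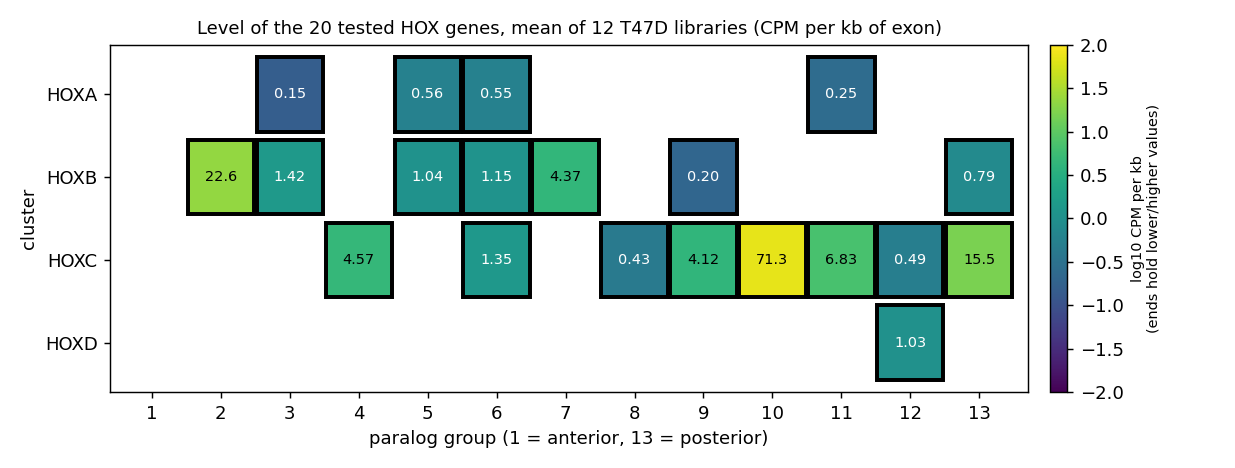
Mean level of the 20 tested HOX genes over the 12 libraries, in CPM per kb of exon, by cluster (rows) and paralog group (columns); colour gives the log10 level, and the number in each box is the level itself. HOXC10 at 71.3, HOXB2 at 22.6 and HOXC13 at 15.5 stand out, and HOXD12 at 1.03 is the 1 tested gene of HOXD.

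The 19 members under the filter were near or at 0. HOXA9, HOXA13 and HOXD13 had 0 counts in all 12 libraries, which allows up to 3 counts over the 12 together. The other 16 had counts and lay in all 4 clusters, among them HOXB1, HOXB4 and HOXB8 of HOXB, HOXC5 of HOXC, and HOXD8, HOXD9, HOXD10 and HOXD11 of HOXD. Their counts summed over 12 libraries ran between 1 for HOXA10 and for HOXD4 and 46 for HOXB8. Members near 0 lay beside abundant ones: HOXA10 had 1 count in all, beside its paralog HOXC10 with 39194 counts, and HOXB4 had 32 counts between its neighbours HOXB3 with 2503 and HOXB5 with 499. Exons of several members overlap those of other genes of the cluster, which can move reads between symbols or leave them uncounted. The overlap covered 80.5% of the exon length of HOXD4, 74.1% of HOXD3, 62.5% of HOXA7 and 43.4% of HOXC5. It covered 26.3% of HOXA10, 17.1% of HOXB4, whose exons overlap those of HOXB3 among others, and 13.2% of HOXB3. It was 9.82% for HOXC10, 7.10% for HOXC13, 3.72% for HOXB2, 3.58% for HOXB5 and 0% for HOXB13.

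HOXB13, the last gene of its cluster and the gene introduced into these cells, separated the genotypes in every library. It had 110, 92 and 97 counts in HOXB13 cells in estradiol and 112, 106 and 108 counts in HOXB13 cells in vehicle. Control cells had 0, 0 and 0 counts in estradiol and 2, 0 and 1 counts in vehicle. Counts per symbol do not separate introduced from endogenous HOXB13. From summed counts, the level in vehicle was 112-fold higher in HOXB13 cells than in control cells, with an exact 95% interval of 38.0 to 546 that covers counting error only. This ratio rested on 3 counts in control cells: it was 224-fold without library 1 of control cells in vehicle and 73.0-fold without library 2. In estradiol, where control cells had 0 counts, the exact 95% interval of the ratio began at 86.3. Against a floor of 3 counts, the limit taken for a count of 0 over the group, the ratio was 107-fold. It was 70.3-fold to 72.5-fold without any 1 of the control libraries in estradiol, where the exact intervals began at 56.9 to 58.6. The ratio against the floor leaves out the counting error in HOXB13 cells and is not a lower bound. HOXB13 passed the filter only through the HOXB13 groups, so it had to differ between genotypes.

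Within HOXB13 cells the level of HOXB13 was 5.29 ± 0.525 CPM in estradiol and 5.60 ± 0.0451 CPM in vehicle (SD, n = 3 each). The log2 difference of estradiol over vehicle was −0.08, with a 95% interval of −0.61 to 0.45 and an adjusted p of 0.882 in edgeR's quasi-likelihood test, adjusted by Benjamini-Hochberg over 14799 genes. Per kb of annotated exon, HOXB13 stood at 1.53 ± 0.151 CPM in HOXB13 cells in estradiol and at 1.61 ± 0.0130 CPM in HOXB13 cells in vehicle. That is below the median tested gene, and HOXC10 in the same libraries was at 57.9 ± 3.07 and 80.5 ± 6.20 CPM per kb. The length of the introduced transcript is not stated, so its level per kb is uncertain.

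Estradiol moved a few HOX genes, in both directions, and HOXC10 and HOXC13 were lower in both genotypes. In HOXB13 cells, 1 of 20 tested members was higher in estradiol than in vehicle (HOXB5) and 3 were lower (HOXB2, HOXC10 and HOXC13), at an adjusted p under 0.05. Over all tested genes, 7.22% were higher and 6.38% lower, 13.6% together, against 20% of the members. In control cells, 1 member was higher (HOXB5) and 2 were lower (HOXC10 and HOXC13), 15% of the members, against 8.65% higher and 6.72% lower, 15.4% together, of all genes. With the replicate number as a block, 4519 genes were called in HOXB13 cells rather than 2012, and 5032 in control cells rather than 2275. Averaged over both genotypes, 2 members were higher (HOXB5 and HOXA11) and 3 lower (HOXB2, HOXC10 and HOXC13), 25% of the members, against 14.6% and 13.5%, 28.1% together, of all genes. The shares of members called were thus near those of all genes. The median log2 change of the 19 members other than HOXB13 was −0.09 in HOXB13 cells, −0.04 in control cells and −0.05 averaged, where all genes had medians of −0.01, −0.01 and −0.01.

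HOXC10 had 140, 138 and 127 CPM in HOXB13 cells in estradiol, against 204, 180 and 179 CPM in HOXB13 cells in vehicle. In control cells it had 148, 144 and 145 CPM in estradiol, against 201, 204 and 183 CPM in vehicle. All 6 estradiol libraries were below all 6 vehicle libraries. The log2 change was −0.48 ± 0.09 in HOXB13 cells (SE, adjusted p = 0.00316) and −0.43 ± 0.09 in control cells (adjusted p = 0.0055), edgeR with Benjamini-Hochberg adjustment. Averaged over genotypes it was −0.45, with a 95% interval of −0.59 to −0.31, which is a fold of 0.731 (edgeR adjusted p = 0.000123).

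HOXC13, the most posterior HOXC gene, had 28.98, 25.7 and 30.2 CPM in HOXB13 cells in estradiol, against 39.9, 37.2 and 41.6 CPM in HOXB13 cells in vehicle. Control cells had 36.0, 33.9 and 33.2 CPM in estradiol, against 44.6, 45.2 and 52.8 CPM in vehicle. Estradiol libraries were again below every vehicle library, across genotypes too. The log2 change was −0.48 ± 0.11 in HOXB13 cells (SE, adjusted p = 0.00889) and −0.47 ± 0.11 in control cells (adjusted p = 0.00873), and averaged it was −0.48 (95% interval −0.64 to −0.31, edgeR adjusted p = 0.000331). HOXC10 and HOXC13 kept their calls in all 3 estradiol comparisons under every alternative setting run. HOXC11 and HOXC12, which lie between them on the chromosome, did not pass, nor did HOXC9: the averaged log2 change was −0.0016 for HOXC11, with a 95% interval of −0.18 to 0.18, and −0.27 for HOXC12, with an interval of −0.75 to 0.20. For HOXC9 it was −0.15, with an interval of −0.40 to 0.09 (edgeR adjusted p = 0.354).

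HOXB2 fell in HOXB13 cells, to 48.5, 42.0 and 43.7 CPM in estradiol, against 59.0, 63.0 and 55.9 CPM in vehicle. The control cells had 55.6, 51.5 and 52.1 CPM in estradiol, against 54.2, 54.5 and 55.0 CPM in vehicle. The estradiol libraries of the HOXB13 cells were the lowest of all 12, while the control groups overlapped. The log2 change was −0.41 ± 0.10 in HOXB13 cells (SE, adjusted p = 0.0114) and −0.04 in control cells, with a 95% interval of −0.25 to 0.17 (adjusted p = 0.834), edgeR with Benjamini-Hochberg adjustment. Without a filter on low counts the adjusted p in HOXB13 cells was 0.0542. The averaged change of −0.22 ± 0.07 (adjusted p = 0.0235) was not held without the 4 libraries numbered 2 (0.0860), without a filter (0.130), without library 2 or 3 of HOXB13 cells in estradiol (0.0588 and 0.0541), library 1 or 2 of HOXB13 cells in vehicle (0.0508 and 0.0512), or library 2 or 3 of control cells in estradiol (0.0576 and 0.0625).

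HOXB5, a mid-cluster gene with roles in lung and gut development in mouse, was the 1 member called higher in estradiol in both genotypes. It had 73, 55 and 47 counts, or 3.87, 2.86 and 2.54 CPM, in HOXB13 cells in estradiol, against 33, 22 and 36 counts, or 1.64, 1.16 and 1.88 CPM, in HOXB13 cells in vehicle. Control cells had 53, 51 and 77 counts, or 2.59, 2.63 and 3.73 CPM, in estradiol, against 15, 20 and 17 counts, or 0.752, 0.957 and 0.887 CPM, in vehicle. Every estradiol library was above every vehicle library. The log2 change was 0.98 ± 0.28 in HOXB13 cells, a 1.98-fold rise (SE, edgeR adjusted p = 0.0318), and 1.78 ± 0.30 in control cells, a 3.43-fold rise (edgeR adjusted p = 0.000988). The call in HOXB13 cells was lost when only the 2 groups compared entered the fit (0.0559), and without the 4 libraries numbered 2 (0.0949). It was also lost without library 1 or 2 of HOXB13 cells in estradiol (0.146 and 0.0542) or library 1 or 2 of HOXB13 cells in vehicle (0.0805 and 0.0986). Averaged over genotypes the change was 1.38 (95% interval 0.94 to 1.82, edgeR adjusted p = 0.000166), a call kept under every alternative run.

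HOXA11, a posterior HOXA gene known for its roles in uterus, kidney and limb in mouse, was scarce. In the main fit, which had no replicate block, it passed only in the averaged comparison. It had 10, 22 and 17 counts in HOXB13 cells in estradiol, against 8, 3 and 9 counts in HOXB13 cells in vehicle, and 13, 15 and 24 counts in control cells in estradiol, against 5, 8 and 4 counts in control cells in vehicle. As normalised levels these were 0.531 to 1.15 CPM over the 6 estradiol libraries and 0.158 to 0.470 CPM over the 6 vehicle libraries, with no overlap. The averaged log2 change was 1.45 ± 0.36, a 2.74-fold rise (SE, edgeR adjusted p = 0.00811). Within a genotype the change was 1.32 (95% interval 0.23 to 2.41, adjusted p = 0.109) in HOXB13 cells and 1.58 (0.47 to 2.69, adjusted p = 0.0542) in control cells. The change in control cells passed with the replicate block (0.0393), with DESeq2 (0.0410) and without library 2 of HOXB13 cells in vehicle (0.0478). The antisense gene HOXA11-AS overlaps 31.1% of the HOXA11 exon length. No source used here states the strand setting of the counting, so reads of the pair cannot be told apart, and HOXA11-AS itself had 0 to 10 counts per library.

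The RefSeq promoter window of HOXA11 (chr7:27185183-27185482, minus strand, GRCh38.p14, 250 bases before to 50 after the start) is shown because HOXA11 rose in estradiol; HOXB2, HOXB5, HOXC10, HOXC13 and HOXB13 had no entry. Capitals mark matches to the estrogen response element half-site GGTCA on either strand.
HOXA11 promoter: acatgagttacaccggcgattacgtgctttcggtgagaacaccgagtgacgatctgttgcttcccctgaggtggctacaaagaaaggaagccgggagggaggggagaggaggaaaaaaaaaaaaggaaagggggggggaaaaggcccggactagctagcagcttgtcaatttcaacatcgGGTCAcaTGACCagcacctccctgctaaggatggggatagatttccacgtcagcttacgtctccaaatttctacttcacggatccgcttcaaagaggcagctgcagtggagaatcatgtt
The window holds 2 half-sites that face each other, 70 and 63 bases before the start, and no full element GGTCANNNTGACC, in which 3 bases separate the half-sites. The full element was in 0.057% of 35116 promoter windows of this length and in 0 of 27 HOX windows, which cover 20 HOX genes, while the half-site was in 37.4% of all windows and 11 of the HOX windows. A match is only a description of these letters.

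Values in every library are also given for the leading genes of the HOXA and HOXD clusters by CPM. HOXA5, a gene of lung development in mouse, had 26, 10 and 14 counts in HOXB13 cells in estradiol, against 15, 18 and 17 in HOXB13 cells in vehicle, and 37, 17 and 25 counts in control cells in estradiol, against 21, 15 and 11 in control cells in vehicle. The groups overlapped, and the averaged log2 change was 0.39 (95% interval −0.28 to 1.05, edgeR adjusted p = 0.394). HOXD12 had 22, 15 and 23 counts in HOXB13 cells in estradiol, against 22, 29 and 35 in HOXB13 cells in vehicle, and 34, 14 and 16 counts in control cells in estradiol, against 35, 56 and 28 in control cells in vehicle. Its averaged change was −0.69 (−1.29 to −0.09, edgeR adjusted p = 0.0836), and it passed without library 1 of control cells in estradiol (0.0240). HOXB6, HOXB9 and HOXC9, picked out here after their values were seen, stood apart in HOXB13 cells without passing, as HOXA11 above did. HOXB6 and HOXB9 were higher in estradiol and HOXC9 was lower. How many of all tested genes stand apart in this way was not counted. HOXC9 had 5.63 to 6.61 CPM in estradiol, against 7.27 to 8.58 CPM in vehicle. Its log2 change was −0.31 (−0.66 to 0.03, edgeR adjusted p = 0.245). HOXB6 had 4.09, 4.01 and 3.25 CPM in HOXB13 cells in estradiol, against 2.63, 2.53 and 1.93 CPM in HOXB13 cells in vehicle, a log2 change of 0.68 (0.14 to 1.21, adjusted p = 0.0964), which passed with the replicate block (0.0309). Exons of other genes overlap 32.9% of the HOXB6 exon length. In HOXB9 the change in HOXB13 cells was 0.995 (−0.44 to 2.43, edgeR adjusted p = 0.386). The averaged HOXB9 change was 0.88 (−0.16 to 1.91, edgeR adjusted p = 0.200), and 1.15 (0.0345) without library 1 of control cells in estradiol. That library had 1 count where the other 11 libraries had 5 to 22.

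**Figure D2:**
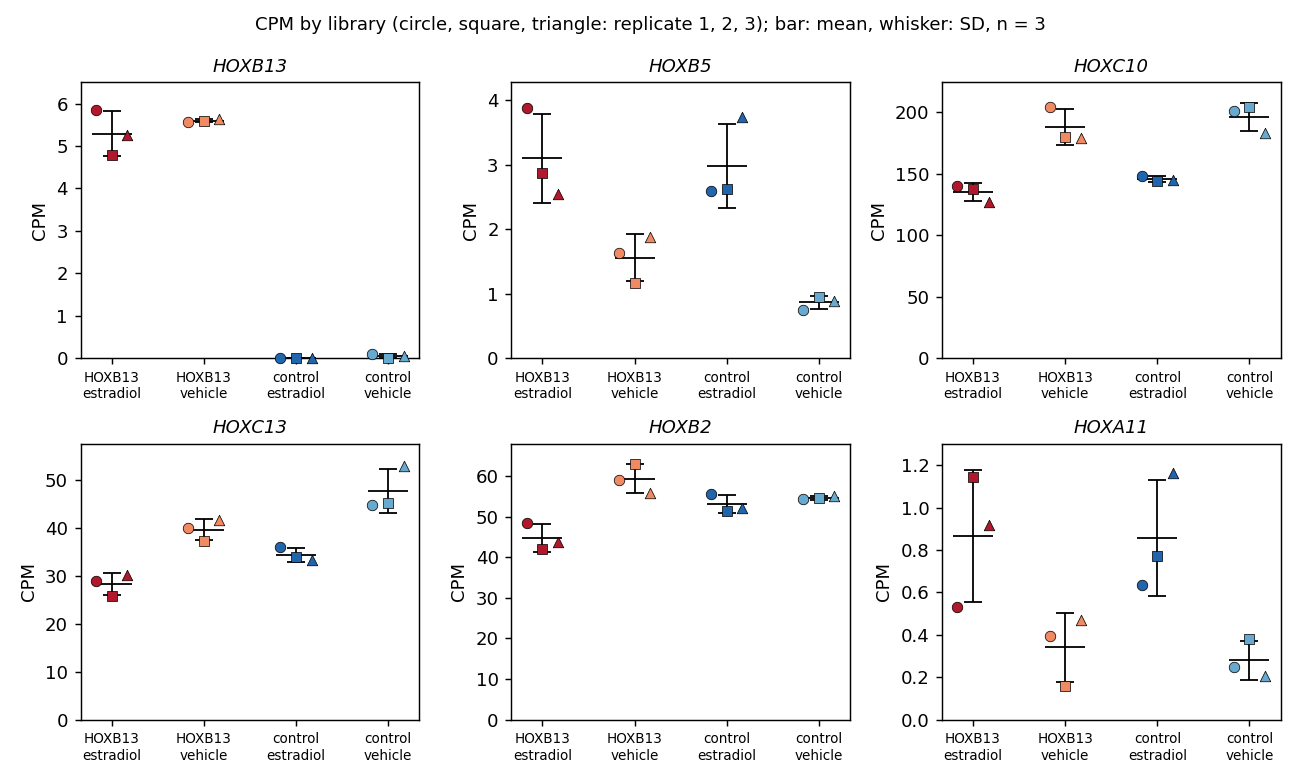
CPM of 6 HOX genes in each library, by group, with replicates 1, 2 and 3 as circle, square and triangle, the mean as a bar and the SD as whiskers (n = 3). HOXB13 is near 0 in the control groups, the estradiol groups of HOXC10 and HOXC13 lie below the vehicle groups, and those of HOXB5 and HOXA11 lie above them.

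Summed over a cluster as CPM per kb, HOXC stood at 86.7 ± 2.69 in HOXB13 cells in estradiol, against 115 ± 7.61 in HOXB13 cells in vehicle, and at 95.02 ± 0.749 in control cells in estradiol, against 122 ± 3.81 in control cells in vehicle. Without HOXC10 the HOXC sums were 28.8 ± 0.551, against 34.2 ± 1.63, in HOXB13 cells and 32.4 ± 0.917, against 37.5 ± 1.73, in control cells, estradiol against vehicle. Most of that remaining difference was HOXC13. It had 11.7 ± 0.955, against 16.3 ± 0.915, in HOXB13 cells and 14.2 ± 0.590, against 19.6 ± 1.89, in control cells. The HOXB sum without HOXB13, most of which is HOXB2, was 28.3 ± 1.09 in HOXB13 cells in estradiol, against 33.2 ± 1.21 in HOXB13 cells in vehicle, and 31.5 ± 0.738 in control cells in estradiol, against 31.1 ± 0.772 in control cells in vehicle. These sums are descriptions with no test.

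**Figure D3:**
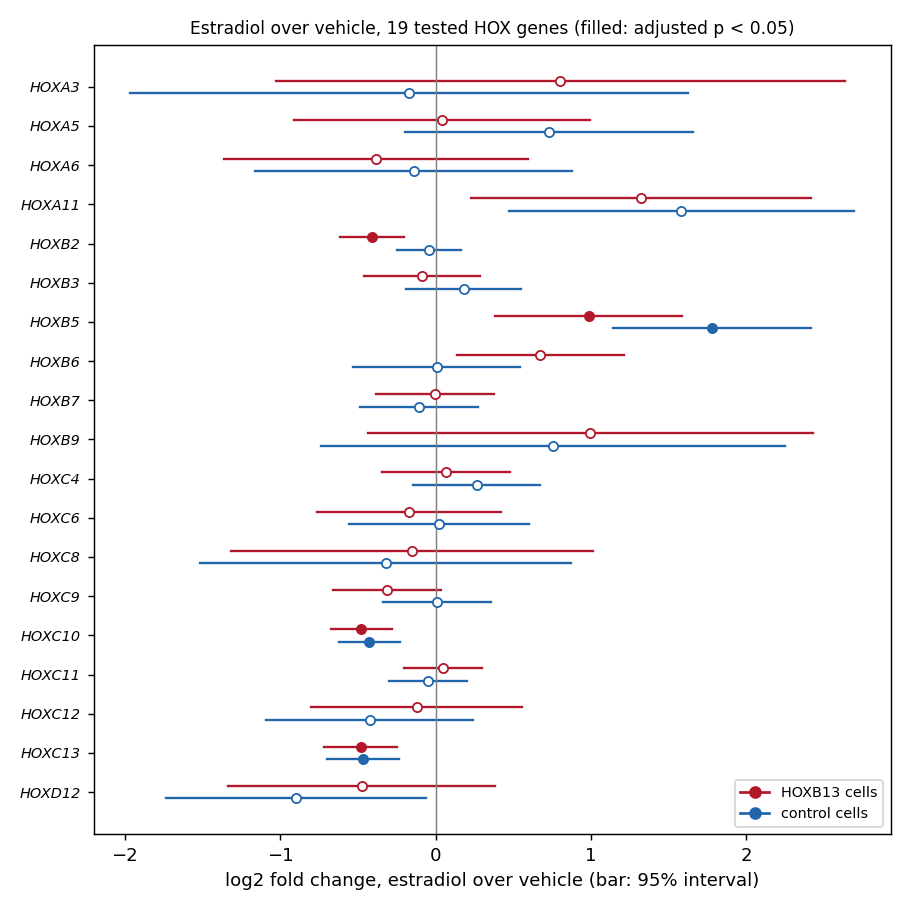
Log2 fold change of estradiol over vehicle for the 19 tested HOX genes other than HOXB13, with 95% intervals from the edgeR fit, in HOXB13 cells (red) and control cells (blue); filled points have an adjusted p under 0.05. HOXB5 is right of 0 in both genotypes, HOXC10 and HOXC13 are left of 0 in both, and HOXB2 is called in HOXB13 cells.

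Apart from HOXB13 itself, 0 of the 20 tested members differed between HOXB13 and control cells at an adjusted p under 0.05 in edgeR. The 1 member called was HOXB13, the introduced gene, which was higher. Its call was fixed in advance, because it passed the filter only through the HOXB13 groups, and is no finding about the members. Of all tested genes, with HOXB13 among them, 0.0203% were higher and 0.00% lower in vehicle and 0.0135% higher and 0.00% lower in estradiol. Averaged over treatments, HOXB13 was again the 1 member called, with 0.0878% of all tested genes higher and 0.0608% lower, 0.149% together. At an unadjusted p under 0.05 there were 3 members in each of these comparisons, HOXB13 among them, beside 559 of all 14799 genes in vehicle, 489 in estradiol and 896 averaged. DESeq2 and limma-voom also called HOXB13 alone. Over all genes the replicate block raised the calls to 60 in vehicle and 58 in estradiol, where 3 and 2 were called without it, and HOXB13 remained the 1 member called in both. The median log2 difference of HOXB13 over control cells over the 19 other members was 0.11 in vehicle, −0.02 in estradiol and −0.04 averaged, where all genes had medians of 0.00, −0.01 and 0.00.

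Among the other posterior genes, HOXC13 differed between genotypes without passing the test in edgeR, and passed with the replicate block. Every HOXB13 library was below every control library within a treatment, at 25.7 to 30.2 against 33.2 to 36.0 CPM in estradiol and 37.2 to 41.6 against 44.6 to 52.8 CPM in vehicle. The log2 difference averaged over treatments was −0.27, with a 95% interval of −0.44 to −0.11 and an adjusted p of 0.329 in edgeR (0.00314 unadjusted). With the replicate block it was −0.27, with an edgeR adjusted p of 0.0158. The block also raised the calls over all genes in this comparison from 22 to 386. Libraries with the same number correlated at 0.0926 or more over its 18 pairs, where the minimum set for pairing was 0.1. HOXC10 showed an averaged difference of −0.09 (95% interval −0.23 to 0.05, edgeR adjusted p = 0.979). For HOXC11 it was −0.11 (−0.29 to 0.06, adjusted p = 0.975).

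The other HOXB genes called in estradiol showed differences of both signs. In vehicle, the log2 difference of HOXB13 over control cells in HOXB5 was 0.85 (95% interval 0.18 to 1.51, edgeR adjusted p = 1.0, unadjusted 0.0162), with every HOXB13 library at 1.16 CPM or more and every control library at 0.957 CPM or less. In estradiol it was 0.05 (−0.52 to 0.63), with overlapping groups. HOXB2 was at 55.9 to 63.0 CPM in HOXB13 cells and 54.2 to 55.0 CPM in control cells in vehicle, a log2 difference of 0.12 (−0.09 to 0.32, adjusted p = 1.0). In estradiol it was at 42.0 to 48.5 CPM in HOXB13 cells and 51.5 to 55.6 CPM in control cells, a log2 difference of −0.25 (−0.45 to −0.04, edgeR adjusted p = 0.999, unadjusted 0.0224). HOXA11 differed by 0.14 averaged over treatments (−0.64 to 0.93, edgeR adjusted p = 0.999).

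HOXB13 protein binds sequences with the cores CAATAAA or TCGTAAA, and the shared start of HOXC4 and HOXC5 (chr12:54016638-54016937, plus strand, GRCh38.p14, from RefSeq) is shown because no other HOX window held both. Capitals mark the 2 cores, which here lie on the reverse strand as TTTACGA, 100 bases before the start, and TTTATTG, 31 bases before it.
HOXC4 and HOXC5 promoter: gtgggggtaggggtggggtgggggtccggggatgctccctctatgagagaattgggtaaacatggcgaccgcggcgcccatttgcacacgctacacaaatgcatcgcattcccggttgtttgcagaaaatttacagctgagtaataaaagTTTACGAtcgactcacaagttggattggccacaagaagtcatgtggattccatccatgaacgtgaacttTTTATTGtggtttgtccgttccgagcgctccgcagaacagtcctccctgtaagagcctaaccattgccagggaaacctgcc
On either strand, CAATAAA was in 4.0% and TCGTAAA in 0.541% of all promoter windows. HOXC4 had a level of 12.8 ± 2.80 CPM in HOXB13 cells in estradiol and 12.2 ± 1.37 CPM in HOXB13 cells in vehicle. Its averaged log2 difference of HOXB13 over control cells was 0.01, with a 95% interval of −0.28 to 0.30 (edgeR adjusted p = 0.999). HOXC5 was below the filter, with 12 counts over all libraries. These matches are descriptions and say nothing of binding.

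**Figure D4:**
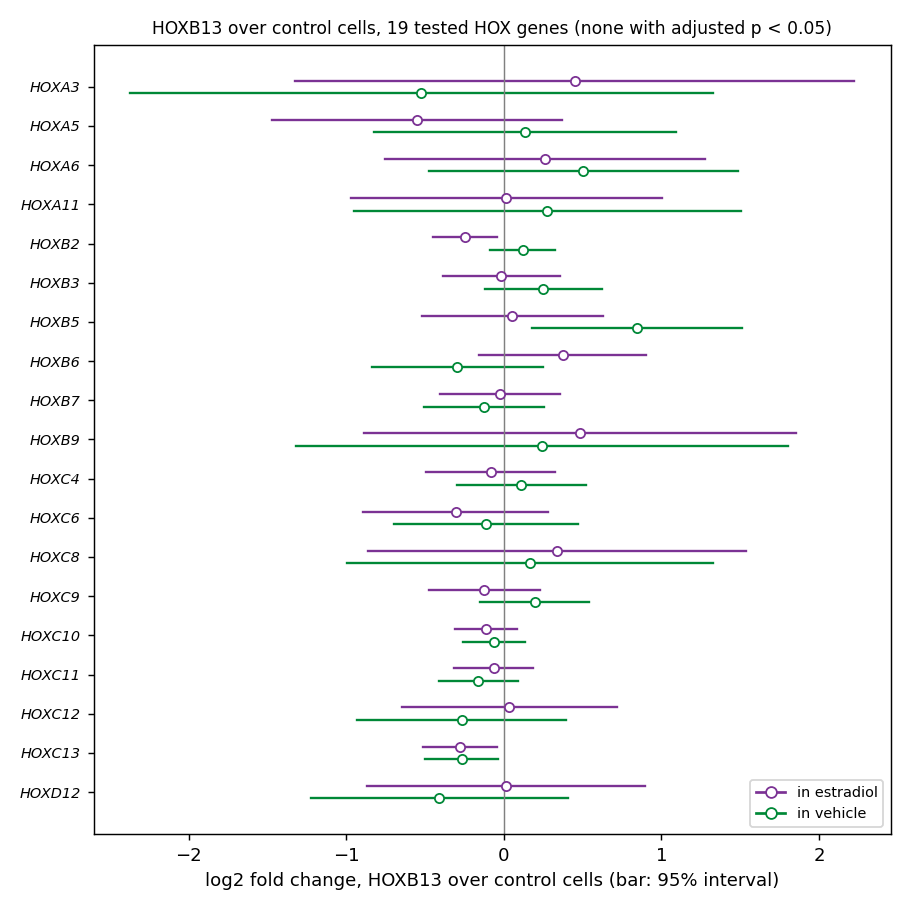
Log2 fold change of HOXB13 over control cells for the 19 tested HOX genes other than HOXB13, with 95% intervals from the edgeR fit, in estradiol (purple) and in vehicle (green). No point has an adjusted p under 0.05, both HOXC13 intervals lie left of 0, and the vehicle interval of HOXB5 lies right of 0.

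The estradiol responses of HOXB13 and control cells were set against each other as an interaction. In edgeR, 0 of 20 members passed, with 0.00% of all tested genes called, and DESeq2 and limma-voom called 0 members as well. At an unadjusted p under 0.05 there were 2 members, HOXB2 and HOXB13, and 219 genes of all 14799; HOXB13 itself is at 0 counts in the control groups but for 3 counts. For HOXB2 the estradiol response in HOXB13 cells minus that in control cells was −0.37 on the log2 scale (95% interval −0.66 to −0.08, edgeR adjusted p = 1.0). For HOXB5 it was −0.79 (−1.67 to 0.08), for HOXC10 −0.05 (−0.33 to 0.23), for HOXC13 −0.01 (−0.34 to 0.32) and for HOXA11 −0.26 (−1.83 to 1.31), all with an adjusted p of 1.0 in edgeR. HOXB2 was called in HOXB13 cells and not in control cells, but the difference between the genotypes did not pass.

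The non-coding RNA and miRNA genes of the clusters were listed as 28 symbols, of which 23 were in the table and 7 were tested. HOTAIR, a long non-coding RNA of the HOXC cluster known for its link to Polycomb, was the most abundant by count, with 158 to 261 counts per library. It had a level of 9.97 ± 1.72 CPM in HOXB13 cells in estradiol, against 11.2 ± 1.63 CPM in HOXB13 cells in vehicle, and 10.9 ± 0.672 CPM in control cells in estradiol, against 12.1 ± 0.492 CPM in control cells in vehicle. In edgeR 0 of the 7 passed in any of the 7 comparisons, and DESeq2 and limma-voom called 0 too. Unadjusted, 2 of 7 had a p under 0.05 for estradiol in HOXB13 cells, beside 3867 of all 14799 genes, and 1 of 7 averaged over genotypes, beside 5745. Of all genes, 28.1% were called in the averaged comparison. HOTTIP and HOTAIRM1 of the HOXA cluster had 0 counts, as did MIR10B, MIR196A1, MIR196A2, MIR196B and MIR615, and MIR10A had 0 to 8. No source used here describes small-RNA libraries, so counts of the miRNA genes are not read as levels or absence of mature miRNAs.

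Genes that flank the clusters and lie outside them moved with estradiol in part. Of 16 tested flanking genes, 4 were higher and 2 lower averaged over genotypes in edgeR, where 28.1% of all genes were called. Their median log2 change was 0.09, and that of all genes −0.01. SNX10, a sorting nexin gene on the HOXA side, showed the largest change of these, 0.81 ± 0.11 (SE, edgeR adjusted p = 9.7e-05), and was called in each genotype. HNRNPA1, a splicing factor gene on the HOXC side, showed 0.28 ± 0.07 (edgeR adjusted p = 0.00999), ATP5G1 0.54 ± 0.14 (0.0110) and CBX1 0.21 ± 0.06 (0.0209). HIBADH and TAX1BP1 were lower, by −0.22 ± 0.07 (0.0288) and −0.23 ± 0.08 (0.0415).

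TALE homeodomain genes, some of which encode DNA-binding partners of HOX proteins, moved with estradiol in part. Of 9 tested TALE genes, 3 were lower and 1 was higher averaged over genotypes in edgeR, where 28.1% of all genes were called. Among them, PBX2 showed a log2 change of −0.27 ± 0.08 (SE, edgeR adjusted p = 0.0289) and TGIF1 one of −0.28 ± 0.09 (0.0404), while TGIF2 showed 0.61 ± 0.13 (0.00307). The median log2 change of the 9 was −0.27, where that of all genes was −0.01.

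Of 25 tested chromatin regulators of HOX genes, 5 were higher and 5 lower in estradiol averaged over genotypes, 28.1% of all genes being called in that comparison. The higher ones were the Polycomb genes EZH2 (0.73 ± 0.10, SE), EED (0.41 ± 0.11) and CBX2 (0.64 ± 0.07) and WDR5 (0.43 ± 0.07) of the H3K4 methyltransferase complexes and the H3K79 methyltransferase gene DOT1L (0.33 ± 0.10). The lower ones included the H3K27 demethylase genes KDM6A (−0.37 ± 0.08) and KDM6B (−0.89 ± 0.14), and EZH1 (−0.43 ± 0.10) and JARID2 (−0.64 ± 0.10) of the Polycomb group. The median log2 change of the list was −0.02, and of all genes −0.01. In the comparisons of HOXB13 with control cells and in the interaction, edgeR, DESeq2 and limma-voom called 0 genes of the 4 lists, and the only unadjusted p under 0.05 belonged to 1 flanking gene averaged over treatments.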

How the data were processed

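RNA sequencing was done on 12 T47D libraries, 3 in each of 4 groups. RNeasy columns were used for the RNA, and a provider did library preparation and sequencing, per the labels. The authors deposited whole-number counts per gene symbol; per the submitters' processing notes, the tools were HTSeq, STAR, Picard and FastQC and the builds hg19 and GRCh37. Neither annotation release nor strand setting is stated. HOX members and gene lists were chosen with earlier results of these data known. Genes were kept by filterByExpr by group (minimum count 10, minimum total 15), which left 14799 of 55882, and scaled by TMM (factors 0.974 to 1.045). Levels are CPM from TMM-effective sizes. Each of 7 contrasts was tested in 1 group-means fit with edgeR 4.0.16 (R 4.3.3), robust quasi-likelihood, with a threshold of 0.05 on p adjusted by Benjamini-Hochberg over the 14799 genes. Alternatives were DESeq2 size factors, no scaling, other filters, DESeq2 1.42.0, limma-voom (limma 3.58.1), a fit without robust estimation, only the groups compared, a replicate block and leaving out each library. Leaving out the 4 libraries numbered 2 was added after seeing the data. The labels do not say that replicates were separate cultures, so p-values reflect only how these libraries vary, which may be technical. Ratios of HOXB13 use summed counts with exact 95% intervals. Intervals and limits of 3 counts for a count of 0 cover counting error only.

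Exon lengths are exon unions of GENCODE release 29 on GRCh38, matched by symbol for 39 of 39 members and 88.4% of tested genes; they were not the lengths used in counting. Promoter windows are from RefSeq on GRCh38.p14, and the counts carry no coordinates. Values are named in every library for HOXB13, HOXB5 and HOXC10, for each member called in any comparison and for the leading member of each cluster by CPM. Across genes, libraries with the same number deviated together from their group means. Correlations were 0.123 to 0.457 in the 4 comparisons between 2 groups, over the minimum of 0.1 set for pairing. Over the 18 pairs of the averaged comparisons and the interaction the lowest was 0.0926, under that minimum, between groups that differ in both genotype and treatment. The main fit carried no replicate block in any comparison, so its p-values leave this pairing out. Fits with the block are given as an alternative. The edgeR steps were tested on simulated counts. Values of a few genes of the lists and clusters are not reported here.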

Additional observations from a re-analysis of the deposited data

Results flagged for a closer look

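HOXB2 is listed because its libraries separated by genotype with opposite signs in the 2 treatments, although neither difference passed the test. Only the tested HOX members were searched for this pattern, and how many of all tested genes show it was not counted. Every HOXB13 library was above every control library in vehicle (55.9 to 63.0 CPM in HOXB13 cells, 54.2 to 55.0 CPM in control cells), and every HOXB13 library was below every control library in estradiol (42.0 to 48.5 CPM in HOXB13 cells, 51.5 to 55.6 CPM in control cells). The difference itself, the interaction, was −0.366 on the log2 scale with an adjusted p of 1.0 in edgeR, so it did not pass over 14799 genes.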

How the results depend on the processing

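Over 34 results on named members and 728 alternatives, 692 kept direction and side of the threshold, 15 lost a call, 5 gained one and 16 changed sign. Calls that changed stand in the report, beside their values. Without the 4 libraries numbered 2, the HOXC10 difference of HOXB13 over control cells in vehicle was 0.000205 on the log2 scale. The HOXC13 interaction was 0.0236 without scaling and 0.0381 without the libraries numbered 2. With 1 library left out, the HOXB5 difference of HOXB13 over control cells in estradiol ran between −0.141 and 0.246, and the interactions between −0.0858 and 0.0491 for HOXC13, −0.0858 and 0.0234 for HOXC10 and −0.583 and 0.0247 for HOXA11. None of these had passed the test, and the cause was not tested. The HOXB13 ratio in estradiol against the floor of 3 counts ran between 70.3 and 112 with 1 library left out. Where a control library was left out, the floor stood against fewer control libraries. By coding length, paralogs 5 to 8 took 8.32% and HOXD 0.593% of the summed level.

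The counts of members called, with 1 library left out, were 3 to 4 in each genotype in estradiol and 4 to 7 averaged. With the replicate block, 2 members rather than 1 were called for HOXB13 against control cells averaged over treatments, HOXC13 being added (−0.27, edgeR adjusted p = 0.0158). Over the 18 pairs of that comparison the lowest correlation was 0.0926, under the minimum of 0.1. The block changed no other call of a named member than those of HOXA11, HOXB6 and HOXC13 named here and in the report. Counts over all genes moved more. For estradiol in HOXB13 cells, 2012 became 4519 with the block, 3285 without the libraries numbered 2 and 1228 without library 1 of either HOXB13 group. In control cells, 2275 became 5032 with the block, 3567 without the libraries numbered 2, 1478 without library 3 of control cells in estradiol and 1487 without library 1 of control cells in vehicle. Averaged, 4158 became 6731 with the block. For HOXB13 against control cells, 3 in vehicle became 62 without a filter, 20 with DESeq2, 6 with limma-voom, 5 without robust estimation, 60 with the block, 37 without the libraries numbered 2 and 1 with only the groups compared; with 1 library left out it ran between 1 and 6. In estradiol, 2 became 30 without a filter, 20 with DESeq2, 5 with limma-voom, 58 with the block and 21 without the libraries numbered 2. Averaged, 22 became 141 without a filter, 104 with DESeq2, 386 with the block and 156 without the libraries numbered 2, and ran between 10 and 32 with 1 library left out. The interaction had 0 calls, 4 without a filter and 1 without the libraries numbered 2. HOXA11 rested on 3 to 24 counts per library; how far depth sets its error was not tested. Under the filter of 1 CPM in 3 libraries HOXA11 was not tested and has no value.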
